A study of Mus musculus with 6 samples.

Results

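The Bcl2 family decides whether a cell keeps or loses the barrier of its outer mitochondrial membrane, and 10 of its genes were followed in the ectoderm of the mouse forelimb bud with and without Sp8. The genes were chosen by name from a deposited table of 49452 genes: Bcl2, Bcl2l1, Mcl1, Bax, Bak1, Bmf, Bcl2l11, Bid, Pmaip1 and Bbc3. All 10 were found, each on 1 row. RNA was sequenced from 6 libraries at E10.5, 1 per embryo, with the ectoderm of its left and right forelimbs together. The 3 Sp8 null embryos came from intercrosses of heterozygotes for an allele labelled Sp8-Cre-ERT2, and the 3 wild-type embryos from crosses of C57BL/6 inbred mice. The background strain was given as C57BL6J for both groups. The null allele is inherited, so it is present in every cell of the embryo and not only in ectoderm. Because the genotypes came from different crosses, cross and genotype cannot be told apart. Transcript levels were measured, and dying cells were not counted.

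In the family, guardians such as Bcl2, Bcl2l1 (Bcl-xL) and Mcl1 hold the pore-forming effectors Bax and Bak1 in check. BH3-only proteins, among them Bmf, Bcl2l11 (Bim), Bid, Pmaip1 (Noxa) and Bbc3 (Puma), are raised or activated by stress, loss of growth factors, DNA damage or detachment, and insert a short helix, the BH3 helix, into a groove of the guardians or effectors. Once the effectors open the membrane, cytochrome c leaves the mitochondria and caspases are activated. Programmed cell death is a normal event in the apical ectodermal ridge, the thickened ectoderm at the tip of the limb bud.

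The BH3 helix is the feature all these proteins share, and its coding stretch is shown for 9 members so that the BH3-only genes can be set beside the guardians and effectors. A leucine followed by 3 residues, then glycine or alanine, then aspartate was searched for in 1 protein-coding GENCODE M21 transcript of each gene. It occurred exactly once in each of the 9, against at least once in 23.7% of 21758 mouse protein-coding genes. Each stretch of 36 bases is written 5′ to 3′ on the coding strand, with the codon of the leucine and the codons of glycine or alanine and of aspartate in capitals.
Bcl2: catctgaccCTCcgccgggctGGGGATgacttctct
Bcl2l1: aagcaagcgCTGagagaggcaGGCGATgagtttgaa
Mcl1: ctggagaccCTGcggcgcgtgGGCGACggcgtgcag
Bax: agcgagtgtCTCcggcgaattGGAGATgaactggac
Bak1: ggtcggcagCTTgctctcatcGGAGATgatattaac
Bmf: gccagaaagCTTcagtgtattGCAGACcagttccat
Bcl2l11: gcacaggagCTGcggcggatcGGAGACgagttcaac
Bid: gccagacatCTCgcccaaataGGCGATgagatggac
Bbc3: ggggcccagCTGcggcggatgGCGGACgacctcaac
Bmf (GRCm38, chr2:118545100-118545135, minus strand) and Bbc3 (chr7:16313764-16313799, plus strand) carry an alanine codon, GCA and GCG, where the other 7 carry a glycine codon. No stretch spans an intron. The stretch of Pmaip1 is not shown. A match to the pattern describes the letters and was not tested as a binding site.

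Of the 10 members, 9 reached at least 1 FPKM in at least 3 libraries and were tested. FPKM counts sequenced fragments relative to transcript length and library size, so levels can be compared between genes. The tenth, Bbc3, stayed below 0.3 FPKM. Of the 9, Bmf passed the threshold, and it was higher in Sp8 null (limma on log2(FPKM + 1), Benjamini-Hochberg adjusted p under 0.05 over all 12133 tested genes). Of all tested genes, 6.83% passed this threshold, 1.68% higher and 5.15% lower in Sp8 null. One of 9 is near that background, so the count is no result about the family. The median log2 fold change of the 9 tested members was -0.13, against -0.06 for all tested genes. Below 0 were 7 of the 9, against 7432 of all 12133 tested genes. At an unadjusted p under 0.05 stood 1 of the 9, Bmf, against 24% of all tested genes.

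Ectoderm markers and those of other cells were read before the members. Sp8 itself reached 0.460 to 1.14 FPKM in null libraries against 8.35 to 13.5 in wild-type ones, so each library followed its label. All 14 surface ectoderm markers, such as Krt5, Trp63 and Epcam, were above 0 in every library, and their summed FPKM was 546 to 656 in Sp8 null and 624 to 668 in wild type. Epcam was lower in Sp8 null (log2 fold change -0.53, limma adjusted p = 0.0313) and Tfap2a higher (0.52, 0.0163). The summed FPKM of 11 limb mesenchyme markers was 253 in Sp8 null embryo 2 and 130 to 176 elsewhere. This sum hides opposite differences. Pdgfra was lower in every null library than in any wild-type one (log2 fold change -1.15, limma adjusted p = 0.12). Col3a1 was higher in every null library (1.45, 0.163), and the groups of the other mesenchyme markers overlapped. The summed FPKM of 9 erythroid markers was 427 in wild-type embryo 1 and 11.7 to 163 elsewhere. Summed endothelial markers (8 genes) ran from 2.51 to 4.41 FPKM in Sp8 null with a median of 3.50, against 2.05 to 3.08 with a median of 2.66 in wild type. Summed macrophage markers (9 genes) ran from 2.31 to 4.08 FPKM in Sp8 null with a median of 3.21, against 1.41 to 2.66 with a median of 1.71 in wild type. Pecam1, Cdh5, Cx3cr1 and Tyrobp were each higher in every null library than in any wild-type one, all below 1 FPKM and untested. Over all tested genes, 8.63% were higher without overlap. The groups of all other genes on both lists overlapped, and the means of Esam and Fcgr1 were lower in Sp8 null. Cdh5 was at 0 in each wild-type library, and C1qa in all libraries but Sp8 null embryo 3. The part of these cells in the results was not tested. Relative depth, read from the commonest ratio of low values between libraries, ranged from 0.839 to 1.04 of wild-type embryo 1.

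**Figure D1:**
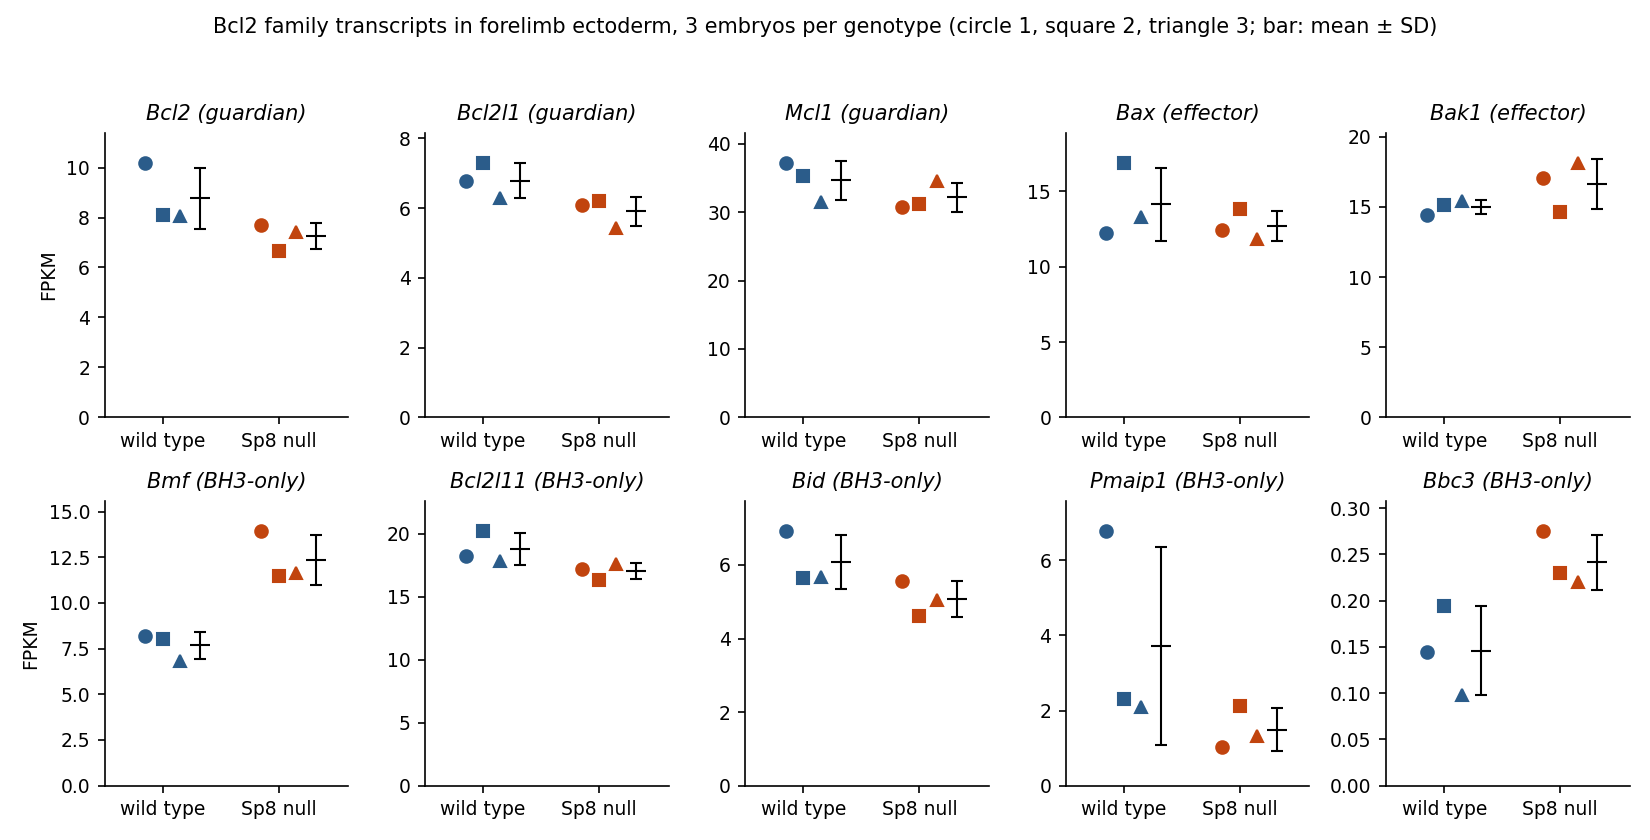
FPKM (vertical axes, from 0) of the 10 members in wild type (blue) and Sp8 null (red), with 1 symbol per embryo and the mean with its SD as a black bar. Bmf lies between 6.84 and 8.20 FPKM in wild type and between 11.5 and 13.9 FPKM in Sp8 null, while Mcl1, Bax and Bak1 overlap between the groups.

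Bmf encodes Bcl2-modifying factor, a BH3-only protein that binds dynein light chain and is known for its part in the death of epithelial cells that lose contact with their matrix. The gene (ENSMUSG00000040093; GRCm38, chromosome 2, 118528757 to 118549687, minus strand, protein-coding) was at 13.9, 11.5 and 11.6 FPKM in null embryos 1 to 3. In wild-type embryos 1 to 3 it was at 8.20, 8.03 and 6.84 FPKM. The lowest null library stood above the highest wild-type library. The means were 12.4 ± 1.36 FPKM in Sp8 null against 7.69 ± 0.739 in wild type (SD, n = 3 each), a ratio of 1.61. The log2 fold change was 0.62 (SE 0.11, 95% interval 0.37 to 0.87; limma adjusted p = 0.0167). In RNA from whole ectoderm, more RNA per cell cannot be told apart from more cells that express the gene. Sp8 null embryo 2, whose mesenchymal sum was highest, had the lowest Bmf of the 3 null libraries, and wild-type embryo 1, whose erythroid sum was highest, had the highest Bmf of the wild-type libraries; the part of other cells in the Bmf difference was not tested.

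The call on Bmf was close to the threshold. It was lost without Sp8 null embryo 1 (limma adjusted p = 0.0505), without wild-type embryo 2 (0.0573), without wild-type embryo 3 (0.0501) with no filter on low values (0.0649), and without Sp8 null embryo 2 and wild-type embryo 1 together (0.0609). The log2 fold change lay between 0.54 and 0.71 over all 16 alternatives. In the authors' deposited table the signed fold change of Bmf was 1.58, with a p-value listed as 0.

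The RefSeq promoter at the outermost start of Bmf is shown because Bmf is the member that rose (GRCm38.p6, chr2:118549637-118549936, minus strand, from 250 bases before the start to 50 after it). The capitals mark the only match to the GC box GGGCGG, searched on both strands. This box is a sequence that transcription factors of the Sp family are known to bind.
Bmf promoter: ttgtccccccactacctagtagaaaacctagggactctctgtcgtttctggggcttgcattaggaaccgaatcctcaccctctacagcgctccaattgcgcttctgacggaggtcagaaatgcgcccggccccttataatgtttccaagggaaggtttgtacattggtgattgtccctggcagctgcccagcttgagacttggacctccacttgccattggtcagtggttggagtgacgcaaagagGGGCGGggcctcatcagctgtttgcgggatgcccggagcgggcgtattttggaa
The other Bmf starts in RefSeq hold no match in their windows, while 35.7% of all 32851 promoter windows hold at least 1. Of the 16 windows of 9 members, 10 hold a match, with 7 in that of Bcl2, 4 to 7 in those of Bbc3, 3 in each of Bax, Bid and Bcl2l11, 1 in that of Mcl1 and 0 in those of Bak1 and Bcl2l1. Binding was not measured in these samples, and a match is a description only.

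None of the other BH3-only genes tested passed the threshold. Bcl2l11 (ENSMUSG00000027381; chromosome 2, 128126038 to 128162547, plus strand) encodes Bim, which responds to loss of growth factors and binds all the main guardians. It was the most abundant BH3-only transcript, at 17.2, 16.3 and 17.6 FPKM in null embryos 1 to 3 and 18.2, 20.2 and 17.8 FPKM in wild-type embryos 1 to 3. Null libraries were all just below the wild-type ones. The log2 fold change was -0.13 (95% interval -0.31 to 0.05; limma adjusted p = 0.354), and -0.08 without wild-type embryo 2. Bid (ENSMUSG00000004446; chromosome 6, 120891930 to 120916853, minus strand) links death receptors to mitochondria after it is cut by caspase 8. Its FPKM was 5.56, 4.60 and 5.06 in Sp8 null and 6.91, 5.66 and 5.67 in wild type, again without overlap. The log2 fold change of Bid was -0.22 (95% interval -0.47 to 0.04; limma adjusted p = 0.275), and -0.14 without wild-type embryo 1. Exons of Bid and Bcl2l13 share 628 bases on opposite strands, and since the use of strand in the counting is not given in the sources used here, reads from that stretch cannot be assigned to either with certainty.

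Pmaip1 and Bbc3 are both known targets of p53. Pmaip1 was at 1.03, 2.13 and 1.31 FPKM in Sp8 null against 6.78, 2.31 and 2.10 in wild type. Wild-type embryo 1 stood far above the other 5 libraries, among which the groups overlapped. The log2 fold change was -0.81 (95% interval -1.63 to 0.01; limma adjusted p = 0.212), and without wild-type embryo 1 it was -0.39. That library also had the highest erythroid sum, whose part in the Pmaip1 value was not tested. Bbc3 was listed at 0.275, 0.230 and 0.220 FPKM in Sp8 null against 0.145, 0.195 and 0.0981 in wild type. Its groups did not overlap, but fitted with no filter, over 27766 genes, its limma adjusted p was 0.321.

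Among the guardians, every mean was lower in Sp8 null and none passed the threshold. Bcl2 (ENSMUSG00000057329; chromosome 1, 106538178 to 106714274, minus strand), the founding member of the family and a survival protein, was at 7.69, 6.67 and 7.42 FPKM in Sp8 null against 10.2, 8.08 and 8.05 in wild type. The groups did not overlap, and wild-type embryo 1 was the highest. The log2 fold change was -0.24 (95% interval -0.49 to 0.02; limma adjusted p = 0.242), and -0.14 without wild-type embryo 1. Exons of Bcl2 share 558 bases with D630008O14Rik on the opposite strand, which was at 0.397 to 0.887 FPKM. Bcl2l1 (ENSMUSG00000007659; chromosome 2, 152780668 to 152831728, minus strand), needed in embryonic neurons and red cell precursors, was at 6.09, 6.21 and 5.43 FPKM in Sp8 null against 6.77, 7.29 and 6.30 in wild type (log2 fold change -0.17, 95% interval -0.39 to 0.04, limma adjusted p = 0.309). Mcl1 (ENSMUSG00000038612; chromosome 3, 95658788 to 95663176, plus strand), a short-lived guardian, had the highest level of all 10 members. It was at 30.7, 31.2 and 34.6 FPKM in Sp8 null against 37.2, 35.2 and 31.4 in wild type, with overlap. The log2 fold change was -0.10 (95% interval -0.30 to 0.10, limma adjusted p = 0.529). It was -0.05 without wild-type embryo 1 and -0.17 without wild-type embryo 3. The lower ends of the 95% intervals lie at 0.710 of the wild-type level for Bcl2, 0.765 for Bcl2l1 and 0.811 for Mcl1 on the scale of FPKM + 1.

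The effectors overlapped between the genotypes. Bax (ENSMUSG00000003873) lies on chromosome 7 from 45461697 to 45466898 and Bak1 (ENSMUSG00000057789) on chromosome 17 from 27019810 to 27029009, both on the minus strand of GRCm38. Bax was at 12.5, 13.8 and 11.8 FPKM in Sp8 null against 12.2, 16.9 and 13.3 in wild type (log2 fold change -0.13, 95% interval -0.42 to 0.15, limma adjusted p = 0.559). Without wild-type embryo 2, the highest library, its log2 fold change was -0.0085, and without wild-type embryo 1 it was -0.22. Bak1 was at 17.1, 14.7 and 18.1 FPKM in Sp8 null against 14.5, 15.1 and 15.4 in wild type. Its log2 fold change was 0.13 (95% interval -0.08 to 0.35, limma adjusted p = 0.426). Without Sp8 null embryo 3 it was 0.07, and without Sp8 null embryo 2 it was 0.22. The 2 effectors had opposite signs, and neither sign was separated from 0. Exons of Bak1 share 437 bases with Ggnbp1 on the opposite strand, which was at most 1.09 FPKM. Exons of Bax share 192 bases with Gm45808 on the same strand, a model listed at essentially 0.

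**Figure D2:**
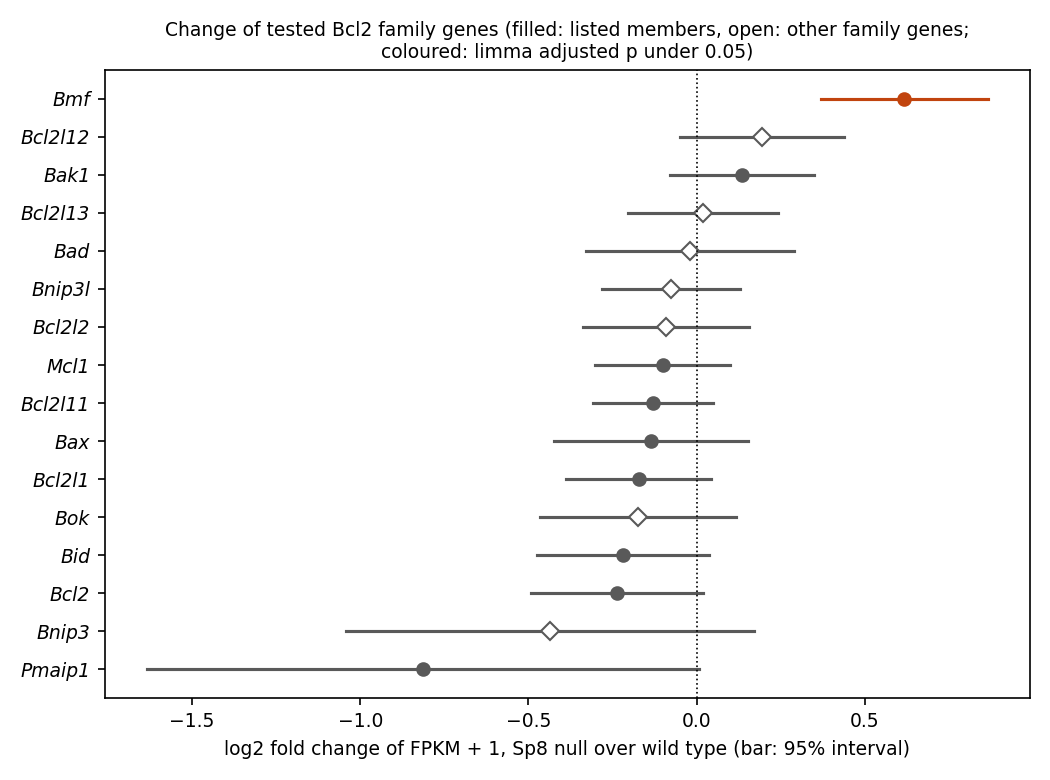
Log2 fold change of FPKM + 1, Sp8 null over wild type (horizontal axis), with its 95% interval for the 16 tested genes of the Bcl2 family, the 9 listed members as filled circles and 7 other family genes as open diamonds. Bmf, in red, is the gene whose adjusted p passed the threshold, and Pmaip1 has the widest interval, from -1.63 to 0.01.

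Without overlap between the groups stood 5 of the 9 tested members, Bmf higher and Bcl2, Bcl2l1, Bcl2l11 and Bid lower in Sp8 null. Over all tested genes this share was 29.8%, with 8.63% higher and 21.1% lower. The authors' deposited table listed 4 of the 9 at a p-value under 0.05, Bmf, Bak1, Bcl2 and Pmaip1, against 31.3% of all tested genes, and 5 of all 10 once the untested Bbc3 is added. Its signed fold changes were 1.17 for Bak1, -1.16 for Bcl2, -1.42 for Pmaip1 and 1.39 for Bbc3, each in the same direction as FPKM. Whether these deposited p-values were adjusted was not stated.

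The order of levels was read in each genotype. In wild type Mcl1 (34.6 FPKM) was followed by Bcl2l11 (18.7), Bak1 (15.01), Bax (14.1), Bcl2 (8.77), Bmf (7.69), Bcl2l1 (6.79), Bid (6.08), Pmaip1 (3.73) and Bbc3 (0.146), all as mean FPKM. The ranges of neighbours overlapped for Bak1 and Bax and for each neighbour from Bcl2 down to Pmaip1. In Sp8 null the mean of Bmf (12.4 FPKM) moved ahead of that of Bcl2 (7.26 FPKM), and their ranges were apart. There the range of Bmf overlapped that of Bax (12.7 FPKM). The remaining genes kept their order.

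Summed FPKM by role was read beside the rise of Bmf. The 5 BH3-only genes, without Bad, summed to 36.2 ± 1.62 FPKM in Sp8 null against 36.4 ± 3.87 in wild type (SD, n = 3 each). The sum was 38.0, 34.8 and 35.8 FPKM in null embryos 1 to 3. It was 40.3, 36.4 and 32.5 FPKM in wild-type embryos 1 to 3, so the wild-type mean leaned on embryo 1, with its high Pmaip1. Bmf made up 36.7, 33.0 and 32.5% of that sum in null embryos 1 to 3 and 20.4, 22.1 and 21.04% in wild-type embryos 1 to 3. The means of Bcl2l11, Bid and Pmaip1 were lower in Sp8 null beside the higher Bmf, and the ranges of the sum overlapped. The 3 guardians summed to 45.4 ± 1.82 FPKM in Sp8 null against 50.2 ± 4.18 in wild type, and the 2 effectors to 29.3 ± 0.778 and 29.1 ± 2.66 FPKM. Sums of FPKM add molecules of different proteins and carry no test.

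Ratios within a library do not depend on scaling between libraries. Bmf per Bcl2 was 1.81, 1.72 and 1.57 in null embryos 1 to 3 and 0.806, 0.993 and 0.850 in wild-type embryos 1 to 3. Bmf was thus above Bcl2 in each null library and below it in each wild-type library. Bmf per Mcl1 was 0.453, 0.368 and 0.336 in Sp8 null and 0.221, 0.228 and 0.218 in wild type. Bmf per Bcl2l1 had means of 2.09 ± 0.222 and 1.13 ± 0.0686, and Bmf per Bcl2l11 of 0.726 ± 0.0772 and 0.411 ± 0.0348 (SD, n = 3 each). For these 4 ratios the two-sided exact permutation p was 0.1, the smallest that 3 libraries against 3 allow, and 0.175 after Benjamini-Hochberg adjustment over the 7 ratios computed. Bax per Bcl2, a ratio often read as a balance of death and survival, overlapped, with 1.76 ± 0.266 in Sp8 null and 1.65 ± 0.442 in wild type (SD, n = 3 each; exact permutation p = 0.9). The 4 ratios share Bmf and were chosen with its values known.

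**Figure D3:**
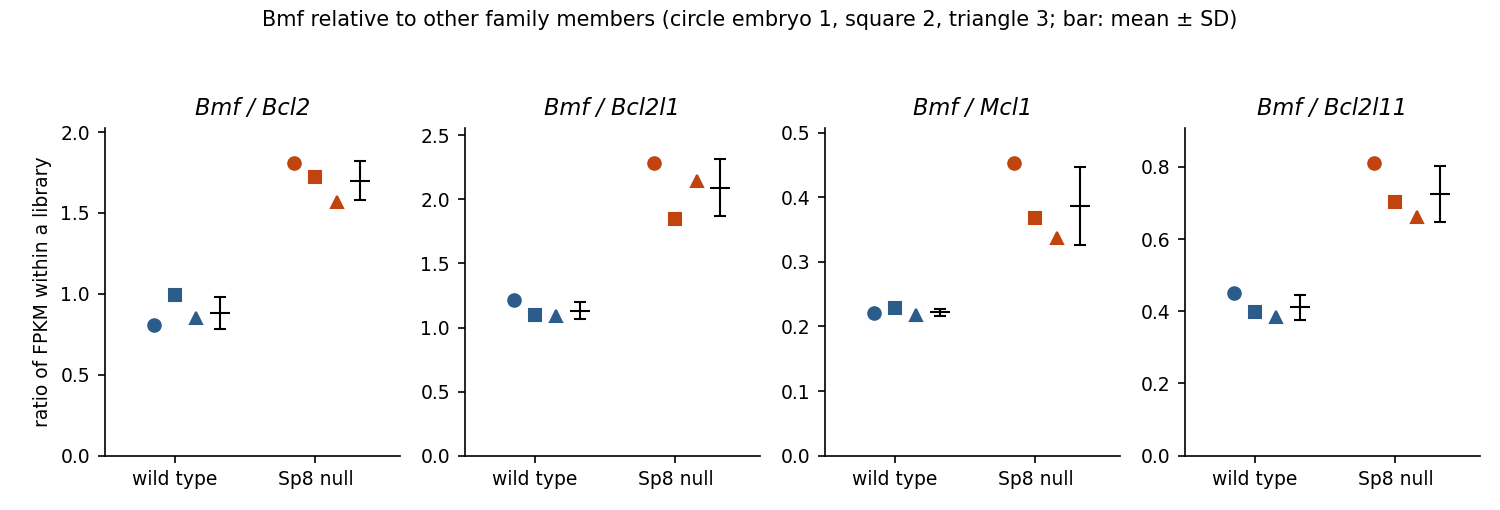
Ratio of the FPKM of Bmf to that of Bcl2, Bcl2l1, Mcl1 and Bcl2l11 within each library (vertical axes, from 0), with 1 symbol per embryo and the mean with its SD as a black bar. Each null library (red) lies above each wild-type library (blue) in all 4 panels.

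Of 15 further genes of the family, 7 were tested. None passed the threshold (limma) or reached an unadjusted p under 0.05, against 6.83% and 24% of all tested genes. With 7 genes, none passing is near the first share. Bcl2l2 (Bcl-w), another guardian, had a log2 fold change of -0.09, the effector relative Bok of -0.17 and the BH3-only gene Bad of -0.02. Bcl2l12 and Bcl2l13 were at 0.19 and 0.02. Bnip3 and Bnip3l, which mark mitochondria for removal, were at -0.44 and -0.08, and limma adjusted p-values of the 7 lay between 0.308 and 0.949. Bnip3 was at -0.18 without wild-type embryo 2 and at -0.75 without wild-type embryo 3 (limma adjusted p = 0.738 and 0.0511). Bad turned to 0.05 and 0.07 under the other scalings, and Bnip3l to 0.02 under upper-quartile scaling. Exons of Bnip3 share 504 bases with Gm45507 on the opposite strand, which was at 10.8 to 25.9 FPKM.

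The 8 untested genes of that list were low. Bcl2l10, Bcl2a1a and Bcl2a1d were listed at 0 in every library, and Bcl2a1b in all but 1. The Bcl2a1 genes are near-identical copies, so their reads may be split or lost. Hrk, a BH3-only gene of dying neurons, was at 0.0322, 0.0179 and 0.0265 FPKM in Sp8 null against 0.253, 0.111 and 0.188 in wild type. Those groups did not overlap, although all values were below the filter, and fitted with no filter its limma adjusted p was 0.124. The authors' deposited table gave Hrk a signed fold change of -2.4, with a p-value listed as 0.

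The steps downstream of the family were read in a list of 22 genes for cytochrome c release, caspases and their inhibitors, of which 21 were tested. Of the 21, 1 passed the threshold and 5 were under an unadjusted p of 0.05, against 6.83% and 24% of all tested genes. Both counts are near those shares. The 1 gene that passed was Cycs, which encodes cytochrome c. It fell from 28.2, 31.0 and 28.2 FPKM in wild-type embryos 1 to 3 to 21.6, 19.0 and 22.9 FPKM in null embryos 1 to 3, without overlap (log2 fold change -0.45 with SE 0.09; limma adjusted p = 0.0289). The median log2 fold change of the list was -0.10, against -0.06 for all tested genes. Below 0 were 15 of 21 genes, against 7432 of all 12133 tested genes. Apaf1, the scaffold that cytochrome c binds, and Casp9, which it activates, had log2 fold changes of 0.05 and -0.06 (limma adjusted p = 0.81 and 0.786). The Cycs call was lost in 5 of the 6 fits that left out 1 library, all but that without Sp8 null embryo 3, with adjusted p between 0.0611 and 0.119. It was also lost with a covariate for the number that begins the sample name (0.0543) and without Sp8 null embryo 2 together with wild-type embryo 1 (0.138).

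In the death receptor list 9 of 16 genes were tested and none passed the threshold (limma), 2 of them being under an unadjusted p of 0.05, against 24% of all tested genes. Tnfrsf12a, the receptor of the cytokine TWEAK, had the smallest p. It was at 0.617, 0.668 and 0.781 FPKM in Sp8 null against 1.38, 1.39 and 1.20 in wild type (log2 fold change -0.46, limma adjusted p = 0.0542). It passed when limma was fitted without a trend (0.024). Casp8 and its inhibitor Cflar overlapped between the groups, with log2 fold changes of 0.07 and -0.05 (limma adjusted p = 0.794 and 0.795). Fas, a death receptor below the filter, was at 0.216, 1.26 and 0.685 FPKM in Sp8 null against 0.266, 0.122 and 0.158 in wild type. Its highest value was in Sp8 null embryo 2, the library with the highest mesenchymal sum, whose part in it was not tested.

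Genes of the p53 pathway went both ways. Of 19 listed, 18 were tested, 2 rose and 2 fell, against 6.83% of all tested genes called, and the median log2 fold change was -0.03. Under an unadjusted p of 0.05 were 9 of the 18, against 24% of all tested genes. Btg2, a gene that restrains proliferation, rose from 3.45, 3.20 and 3.38 FPKM in wild-type embryos 1 to 3 to 5.91, 6.77 and 6.97 FPKM in null embryos 1 to 3 (log2 fold change 0.80, limma adjusted p = 0.00383). Trp53inp1, which promotes p53-dependent death, rose from 12.05, 10.7 and 10.1 FPKM to 17.3, 17.4 and 16.5 FPKM (log2 fold change 0.60, limma adjusted p = 0.00766). Cdkn1a, the p21 inhibitor of the cell cycle, fell from 53.4, 68.6 and 76.0 FPKM to 40.1, 33.7 and 44.1 FPKM (log2 fold change -0.73, limma adjusted p = 0.0313). Plk2, a kinase of the stress response, had a log2 fold change of -0.54 and was lower (limma adjusted p = 0.016). Trp53 itself was at 97.2 to 117 FPKM in Sp8 null against 101 to 106 in wild type, and Mdm2, which degrades p53, had a log2 fold change of 0.04 (limma adjusted p = 0.796). Btg2 and Trp53inp1 kept their calls in all 16 alternatives. Cdkn1a lost its call under both other scalings (0.058 and 0.0587) and without Sp8 null embryos 1 or 2 or wild-type embryos 2 or 3 (0.0755 to 0.117), and Plk2 without Sp8 null embryos 1 or 2 or wild-type embryos 1 or 2 (0.0528 to 0.0716), all as limma adjusted p. Plk2 also lost it without Sp8 null embryo 2 and wild-type embryo 1 together (0.121).

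**Figure D4:**
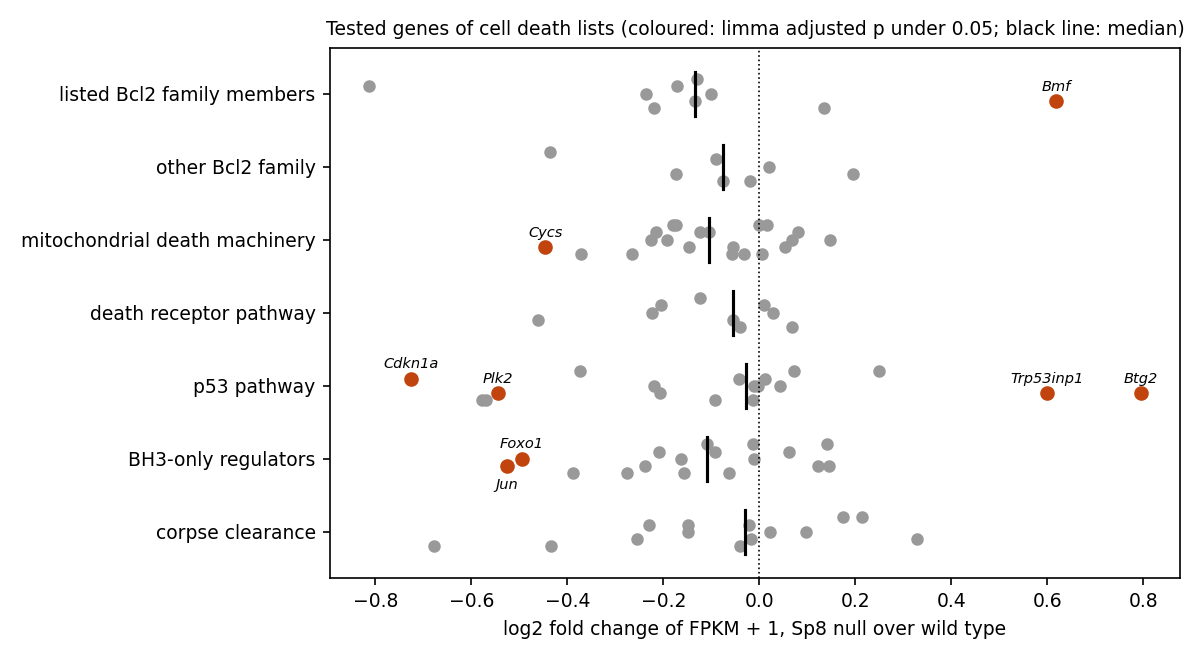
Log2 fold change of FPKM + 1, Sp8 null over wild type (horizontal axis), of each tested gene (points) in 7 lists around cell death, with called genes in red and named, and the median of each list as a black line. The medians lie between -0.13 and -0.03, and called genes stand on both sides of 0 in the p53 list.

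Regulators of BH3-only genes and proteins formed a list of 19, of which 17 were tested. Of these, 2 fell, against 5.15% of all tested genes. Under an unadjusted p of 0.05 were 6 of the 17, against 24% of all tested genes. Foxo1, a transcription factor that activates death genes when growth factor signalling is low, fell from 4.92, 5.58 and 5.41 FPKM in wild-type embryos 1 to 3 to 3.48, 3.06 and 3.91 FPKM in null embryos 1 to 3 (log2 fold change -0.50, limma adjusted p = 0.0358). Jun fell from 2.52, 2.37 and 1.90 FPKM to 1.26, 1.17 and 1.35 FPKM (log2 fold change -0.53, limma adjusted p = 0.0404). Jun is a component of the AP-1 factor and a target of stress kinases. Foxo3, a related factor, had a log2 fold change of 0.06 (limma adjusted p = 0.687). The light chains that tether Bim and Bmf were read with them: Dynll1 was at 185 to 220 FPKM in Sp8 null against 228 to 240 in wild type (log2 fold change -0.21, limma adjusted p = 0.153), and Dynll2 overlapped (-0.01, 0.96). Foxo1 lost its call without Sp8 null embryos 1 or 2 or any wild-type embryo (0.0644 to 0.136) and Jun without any null embryo or wild-type embryos 1 or 2 (0.0772 to 0.144), as limma adjusted p. Foxo1 also lost it under upper-quartile scaling (0.0503), Jun with a filter on a mean of at least 1 FPKM (0.0659), and both with the covariate for the sample name (0.0605 and 0.0648) and without Sp8 null embryo 2 and wild-type embryo 1 together (0.129 and 0.236).

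Genes for the clearance of dead cells were also followed, since epithelial neighbours can engulf them. Of 16 listed, 14 were tested and none passed (limma), with 6 under an unadjusted p of 0.05, against 24% of all tested genes. Anxa1 had the smallest p, at 0.903, 1.32 and 1.36 FPKM in Sp8 null against 3.43, 1.95 and 2.26 in wild type (log2 fold change -0.68, limma adjusted p = 0.063). Axl, a receptor for dying cells, was at 13.0 to 13.6 FPKM in Sp8 null against 8.95 to 11.7 in wild type (log2 fold change 0.33, limma adjusted p = 0.103). Mertk, its relative, was at 10.2 FPKM in Sp8 null embryo 2 and 4.93 to 6.61 FPKM elsewhere.

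Likeness to Bmf was read over 7351 tested genes averaging 5 FPKM or more. Those whose log2(FPKM + 1) followed Bmf most closely over the 6 libraries were Fxyd6 (Pearson's r 0.996), Sostdc1 (0.995) and Moxd1 (0.989). Sostdc1 encodes a secreted antagonist of BMP and Wnt signals and was at 23.2, 19.3 and 18.6 FPKM in null embryos 1 to 3 and 14.4, 13.5 and 11.9 FPKM in wild-type embryos 1 to 3. As in Bmf, embryo 1 was the highest of each genotype. The 6 points share the genotype difference, and 39 genes reached an r over 0.95.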

How the data were processed

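RNA-seq values of 6 libraries came from 1 table. FPKM per library was deposited by the authors with a status per estimate and Ensembl 87 gene models, per the file headers. The submitters' processing notes name FastQC, TopHat2, SAMtools, Cufflinks and DESeq2 and the build GRCm38, without roles. The authors also deposited a mean signal per group on a normalized count scale, a signed fold change score and a p-value, and these columns only describe their comparison. The scaling between libraries and the strand setting are not given in the sources used here. Depth is known only relative to wild-type embryo 1, from the commonest ratio of low values.

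Genes at 1 FPKM or more in at least 3 libraries (12133) were fitted as log2(FPKM + 1) on genotype. The fit used limma (version 3.58.1, R version 4.3.3), allowed the variance to follow the mean, and adjusted p by Benjamini-Hochberg over all tested genes. Fold changes on this scale understate changes of low genes, and 95% intervals use limma's moderated error. The fit was tested on simulated data, and since no outcome is given here, no result rests on that test. Named genes are the 10 members, all other tested genes of the family, the called genes of each other list or its smallest p, and the 3 genes most correlated with the member of smallest p; other genes named, such as Apaf1, Casp9, Casp8, Cflar, Trp53, Mdm2, Foxo3, Dynll1, Dynll2, Axl, Mertk, Fas and Hrk, were chosen for their role after their values were seen. The members and lists were chosen with earlier results of these data known. Positions are from GENCODE M21 (GRCm38), and promoters from RefSeq (GRCm38.p6, 9 members matched, with 16 windows). Each library is a separate embryo, and among genes at 1 FPKM or more in both, at most 1 had an equal value in any 2 libraries. Alternatives were the pseudocount, filters, scalings, no trend, each library left out, the embryo number as a block and a covariate for the number that begins each sample name.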

Additional observations from a re-analysis of the deposited data

How the results depend on the processing

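Over 16 alternatives, 25 single genes gave 400 values, of which 341 kept both sign and call, 48 kept the sign but no longer passed, 1 newly passed and 10 changed direction. The 10 belonged to 3 genes near 0. Bad was at 0.048 under median-of-ratios scaling, 0.066 under upper-quartile scaling, 0.18 without 2 libraries together (embryo 2 of Sp8 null, embryo 1 of wild type), and -0.12 to 0.096 with one replicate left out. Bcl2l13 was at -0.019 without both of those libraries and -0.027 to 0.084 with one replicate left out, and Bnip3l at 0.019 under upper-quartile scaling. None of the 9 tested members changed direction in any of the 16, but the small falls depended on the scaling. The median over all tested genes was -0.056 in the main fit, 0.0084 under median-of-ratios scaling and 0.026 under upper-quartile scaling. Under upper-quartile scaling Mcl1 was at -0.0064, Bcl2l11 at -0.038, Bax at -0.044 and Bcl2l1 at -0.087. Bid was then at -0.14, Bcl2 at -0.15 and Pmaip1 at -0.75. The alternatives without failed estimates and without those 2 libraries together were chosen after seeing the data.

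The number of members called was 1, always Bmf, except for 0 with no filter, 0 to 1 with one replicate left out, and 0 without those 2 libraries (limma adjusted p of Bmf 0.0609, log2 fold change 0.71). All genes called numbered 829 (204 higher, 625 lower), 342 with no filter, 316 to 642 with one replicate left out (fewer samples, and over 1.5 times lower for each library but Sp8 null embryo 3), 545 with the leading number as a covariate and 325 without those 2 libraries. Median-of-ratios scaling gave 327 higher against 544 lower calls, and upper-quartile scaling 363 against 501. With the embryo number as a replicate block it was 328, and Bmf passed (limma adjusted p = 0.0415). Under that block Btg2, Trp53inp1 and Cdkn1a passed too, while Cycs (0.111), Plk2 (0.0674), Foxo1 (0.111) and Jun (0.130) did not. The numbers did not pair the samples: deviations of same-numbered libraries correlated at -0.16, -0.14 and -0.07. With no filter the falls of Cycs, Plk2, Cdkn1a, Foxo1 and Jun no longer passed (limma adjusted p 0.0561 to 0.132). The cause of these changes was not tested.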
